A study of Homo sapiens with 10 samples.

Results

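The aryl hydrocarbon receptor gene AHR, its partner ARNT, its repressor AHRR and 4 genes known as its targets (TIPARP, CYP1A1, CYP1B1 and ALDH3A1) were followed across RNA-seq libraries of PC3, an established human prostate cancer cell line. They were picked by name, and the gene identifiers of the count tables were matched to symbols to find them. All 7 were found among 57445 identifiers, and all 7 were among the 18478 genes with enough counts to be tested. The series holds 10 libraries, 2 in each of 5 groups. Cells carried, as a stable line, a Scramble control hairpin (Scramble), a hairpin labelled RNF2 shRNA1 or a hairpin labelled RNF2 shRNA2, or they were exposed for 48 hours to PRT4165 or to GW-516. RNF2 belongs to Polycomb repressive complex 1, where it ubiquitinates histone H2A, and PRT4165 is known to inhibit that activity. GW-516 is given by a code name alone. All groups share the same parental line and medium. The labels give no dose, no vehicle-treated group, no hairpin in the compound groups and no word on whether paired libraries stem from different cultures. Both compounds were therefore set against Scramble, where the effects of vehicle, hairpin vector and compound cannot be told apart, and the p-values measure only the spread between these libraries, which may be technical. In bulk RNA, fewer expressing cells and less RNA per cell cannot be told apart.

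The aryl hydrocarbon receptor (AhR) is a ligand-activated transcription factor of the bHLH-PAS family. It waits in the cytosol with the chaperone HSP90, and on binding planar aromatic compounds or tryptophan metabolites it enters the nucleus and pairs with ARNT. The pair binds xenobiotic response elements, whose core is GCGTG, and switches on enzymes that oxidize foreign compounds. AHRR competes with the receptor for ARNT, and TIPARP, a mono-ADP-ribosyltransferase, marks the receptor for loss, so both act as feedback. In epithelial cells CYP1B1 is often expressed without added ligand, whereas CYP1A1 is the classical induced target.

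Total counts per library ran from 65877850 to 108380198. Levels below are CPM (counts scaled to a common library size) after TMM normalization. In the file headers the short names of all libraries begin with MDV3 rather than PC3, and what this stands for is not stated in the sources used here. The names of the GW-516 libraries and of replicate 2 of the label RNF2 shRNA2 also carry tags whose meaning is not stated. Any part of these tags in the results was not tested. RNF2 mRNA fell from a mean of 29.5 CPM in Scramble to 12.0 in RNF2 shRNA1 (log2 -1.29, edgeR adjusted p = 2.3e-15, n = 2 against 2). It was not reduced in the libraries labelled RNF2 shRNA2 (34.4 CPM), where BMI1 fell from 253 to 57.3 CPM (log2 -2.14, edgeR adjusted p = 9.8e-12). Those libraries are called by their label throughout, and no direction in them can be read as an effect of less RNF2 mRNA. The 2 libraries of Scramble, of RNF2 shRNA1 and of GW-516 differed by little more than sampling noise, with a scaled chi-square of 2.15 to 2.20 where counting both ends of each fragment alone gives about 2, against 12.2 for the libraries labelled RNF2 shRNA2 and 6.89 with PRT4165. Epithelial markers were high in every library (EPCAM 177 to 225 CPM, KRT18 314 to 466). Neuroendocrine, haematopoietic and hepatocyte markers stood at 0.44 CPM or less in every library, and so did 3 of 4 endothelial and stromal markers matched. The fourth, the collagen gene COL1A1, stood at 15.2 to 46.9 CPM and moved with the groups. The summed level of the 4 genes was 46.4 to 47.1 CPM with GW-516, 25.3 to 29.9 with PRT4165, 26.3 to 27.1 in Scramble, 18.9 to 19.9 in RNF2 shRNA1 and 15.5 to 17.1 for the label RNF2 shRNA2. Its part in the results below was not tested.

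Between 41.1% and 59.2% of all genes tested were called in a comparison, so the members' counts have to be read against a high background. With GW-516, 6 of the 7 genes were called higher than in Scramble and none lower, where 26.5% of all genes tested were called higher, 29.0% lower and 55.5% in either direction. With PRT4165, 5 were called higher and 1 lower, where 19.9% of all genes were called higher, 21.7% lower and 41.6% either way. In RNF2 shRNA1, 4 were called higher and none lower, where 26.2% of all genes were called higher, 28.6% lower and 54.7% either way. In the libraries labelled RNF2 shRNA2, 3 were called higher and 1 lower, where 21.1% were called higher, 21.0% lower and 42.1% either way. Between the compounds 2 genes were higher with GW-516 and 1 lower, where 18.1% of all genes were higher, 23.0% lower and 41.1% either way. Between the hairpin groups none was higher in the libraries labelled RNF2 shRNA2 and 5 were lower, where 29.9% of all genes were higher, 29.2% lower and 59.2% either way. A call is an edgeR adjusted p below 0.05 over all 18478 genes. The median log2 fold change of the 7 genes was 0.29 with GW-516, 0.42 with PRT4165, 0.67 in RNF2 shRNA1 and 0.15 in the libraries labelled RNF2 shRNA2, and that of all genes lay between -0.015 and 0.0086 in these 4 comparisons. The 4 comparisons share the Scramble libraries, so their values are not independent of each other.

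The genes stood at very different levels per length. Over the 10 libraries CYP1B1 averaged 33.4 CPM per kilobase of exon, TIPARP 28.0, AHR 10.3, ARNT 9.15 and ALDH3A1 1.73. CYP1A1 averaged 0.177 and AHRR 0.117 CPM per kilobase. Within Scramble the level of CYP1B1 per length was 200 and 411 times that of CYP1A1 in the 2 libraries, so the classical target was near the bottom of the 7 and its relative CYP1B1 at the top. CYP1A1 rests on 14 to 115 counts per library and AHRR on 26 to 90, with both ends of a fragment counted, which limits what can be seen for these 2 genes.

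**Figure D1:**
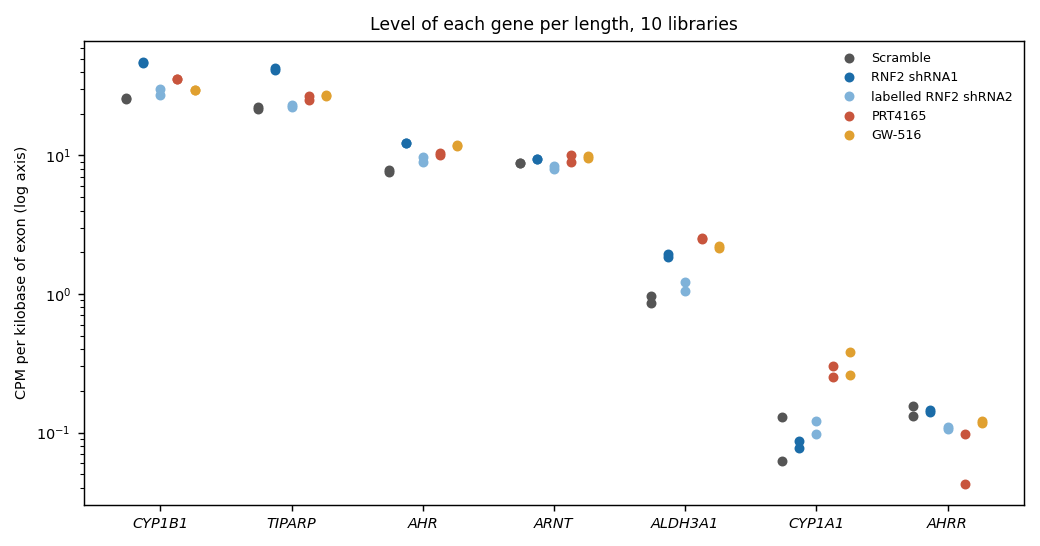
Level of the 7 genes in CPM per kilobase of exon on a log axis, 1 point per library, 2 libraries in each of 5 groups. CYP1B1 and TIPARP stand highest (33.4 and 28.0 on average), AHR and ARNT near 10, and CYP1A1 and AHRR lowest (0.177 and 0.117).

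AHR itself was higher than in Scramble in all 4 other groups. AHR (ENSG00000106546.8, chromosome 7, 17338246 to 17385776, forward strand, GRCh37) encodes the receptor. It stood at 52.5 and 50.2 CPM in Scramble, 81.5 and 81.7 in RNF2 shRNA1, and 60.1 and 64.9 in the libraries labelled RNF2 shRNA2. With PRT4165 it stood at 69.7 and 67.5 CPM and with GW-516 at 77.8 and 78.8. Scramble was lowest and RNF2 shRNA1 highest, and no 2 groups overlapped at any step of the order. AHR rose 1.59-fold in RNF2 shRNA1 (log2 0.67, SE 0.042, edgeR adjusted p = 1.1e-12). It rose 1.52-fold with GW-516 (log2 0.61, SE 0.041, edgeR adjusted p = 5.5e-12), 1.33-fold with PRT4165 (log2 0.42, SE 0.042, edgeR adjusted p = 1.3e-08) and, for the libraries labelled RNF2 shRNA2, 1.22-fold (log2 0.28, SE 0.042, edgeR adjusted p = 5.1e-06). These 4 calls held under every alternative tried, apart from the rule of at least a 2-fold change, which none of them reached.

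The partner moved little. ARNT (ENSG00000143437.16, chromosome 1, 150782181 to 150849244, reverse strand, GRCh37) encodes the nuclear partner of AhR and of the hypoxia factors. It stood at 57.9 and 57.4 CPM in Scramble, 61.4 and 61.9 in RNF2 shRNA1, 52.1 and 54.3 in the libraries labelled RNF2 shRNA2, 65.6 and 58.7 with PRT4165, and 64.1 and 62.8 with GW-516. PRT4165 overlapped both RNF2 shRNA1 and GW-516, the libraries labelled RNF2 shRNA2 were lowest, and all 10 libraries lay within 52.1 to 65.6 CPM. ARNT rose 1.10-fold with GW-516 (log2 0.14, SE 0.045, edgeR adjusted p = 0.012). It fell by 0.11 on the log2 scale where the label is RNF2 shRNA2 (edgeR adjusted p = 0.045). The call with GW-516 was lost without GW-516 replicate 1 (adjusted p = 0.061) and with near-identical pairs summed to 1 sample (0.21). The fall was lost under 7 alternatives besides the 2-fold rule, among them DESeq2 (adjusted p = 0.11) and leaving out either Scramble library (0.16 for both). ARNT was not called with PRT4165 (log2 0.11, SE 0.045, edgeR adjusted p = 0.057), nor was it in RNF2 shRNA1 (log2 0.096, SE 0.046, edgeR adjusted p = 0.081). Without the libraries labelled RNF2 shRNA2 both passed (adjusted p = 0.020 and 0.029). Both also passed with RLE size factors (0.038 and 0.042) and with the groups compared alone (0.037 and 0.0037). With PRT4165 ARNT passed as well with no filter on low counts (0.028) and with a filter of 1 CPM (0.037). Over the settings tried its value with PRT4165 ran from log2 0.034 to 0.20.

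The ratio of receptor to partner followed from these values, and as a ratio within a library it does not depend on scaling between libraries. Per length, AHR stood at 0.887 and 0.856 of the ARNT level in Scramble. In RNF2 shRNA1 the ratio was 1.30 and 1.29, with GW-516 1.19 and 1.23, in the libraries labelled RNF2 shRNA2 1.13 and 1.17, and with PRT4165 1.04 and 1.12. Both Scramble libraries were below 1 and all 8 other libraries above it.

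The 2 feedback genes did not move alike. TIPARP (ENSG00000163659.8, chromosome 3, 156391024 to 156424559, forward strand, GRCh37) stood at 109.9 and 114 CPM in Scramble, 214 and 209 in RNF2 shRNA1, and 113 and 117 in the libraries labelled RNF2 shRNA2. With PRT4165 it stood at 136 and 128 CPM, and with GW-516 at 137 and 135. RNF2 shRNA1 stood far above the other 8 libraries, the compound groups overlapped each other above Scramble, and the libraries labelled RNF2 shRNA2 overlapped Scramble. TIPARP rose 1.89-fold in RNF2 shRNA1 (log2 0.92, SE 0.035, edgeR adjusted p = 9.0e-17). With GW-516 it rose 1.22-fold (log2 0.29, SE 0.035, edgeR adjusted p = 1.6e-07) and with PRT4165 1.18-fold (log2 0.24, SE 0.035, edgeR adjusted p = 6.1e-06). No call was made for the libraries labelled RNF2 shRNA2 (log2 0.042, 95% interval -0.031 to 0.12, edgeR adjusted p = 0.37).

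AHRR, the repressor, was scarce and was called higher than Scramble in no group. AHRR (ENSG00000063438.12, chromosome 5, 304291 to 438406, forward strand, GRCh37) has an annotated span that overlaps PDCD6 on the same strand, so its counts are uncertain. It had 72 and 78 counts (1.005 and 1.19 CPM) in Scramble, 74 and 71 in RNF2 shRNA1 (1.09 and 1.11 CPM), 57 and 90 in the libraries labelled RNF2 shRNA2 (0.815 and 0.840 CPM), and 79 in each GW-516 library (0.897 and 0.936 CPM). With PRT4165 it had 26 and 52 counts (0.328 and 0.750 CPM), both below every other library and more than a factor of 2 apart. AHRR fell by 1.04 on the log2 scale with PRT4165 (SE 0.29, edgeR adjusted p = 0.0053). That call was lost without PRT4165 replicate 1 (log2 -0.53, adjusted p = 0.18) and without Scramble replicate 2 (log2 -0.900, adjusted p = 0.065). Without PRT4165 replicate 2 the value was log2 -1.72 (adjusted p = 2.9e-04). The intervals of the other 3 comparisons with Scramble were wide: -0.55 to 0.56 in RNF2 shRNA1, -0.96 to 0.16 in the libraries labelled RNF2 shRNA2 and -0.81 to 0.30 with GW-516.

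**Figure D2:**
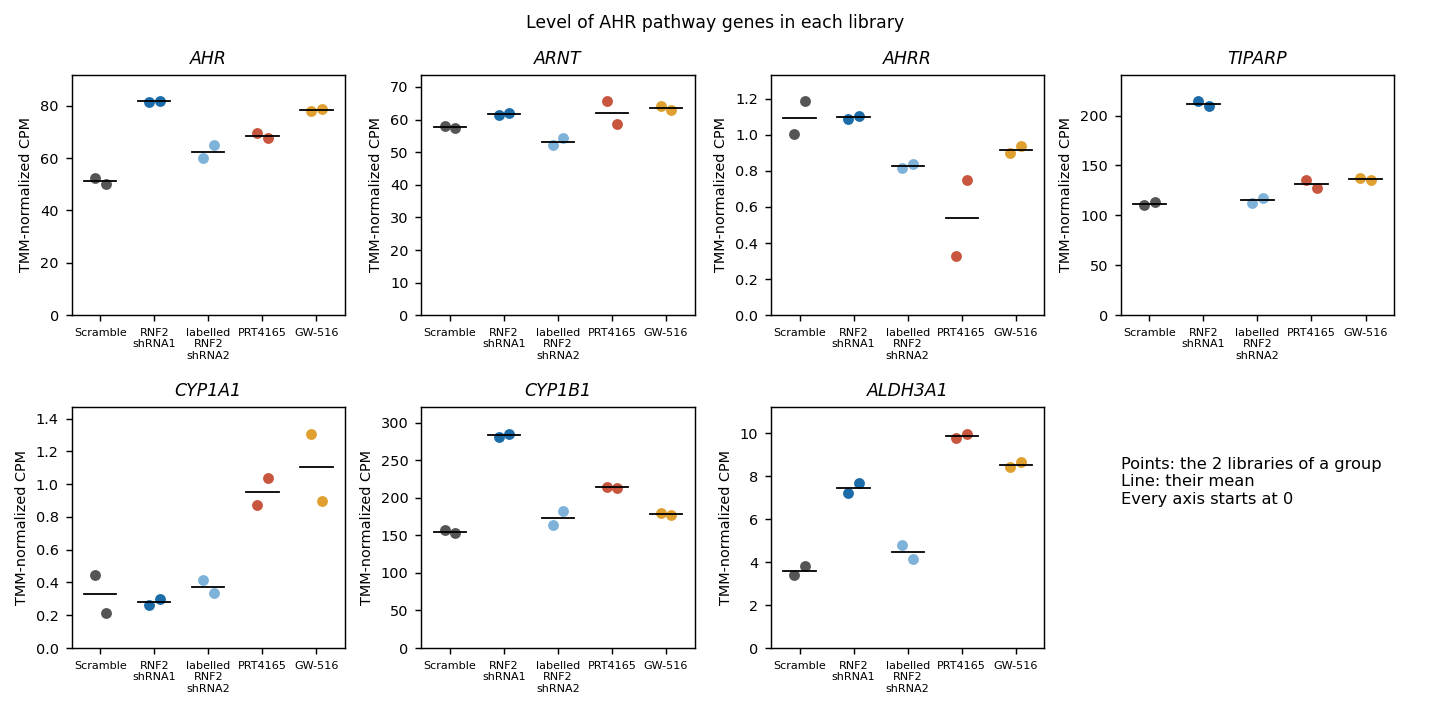
TMM-normalized CPM of the 7 genes by group; points are the 2 libraries, lines their mean, and every vertical axis starts at 0. AHR is lowest in Scramble (52.5 and 50.2 CPM), TIPARP and CYP1B1 are highest in RNF2 shRNA1 (means 212 and 283), and CYP1A1 and ALDH3A1 are highest in the compound groups.

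CYP1A1 (ENSG00000140465.9, chromosome 15, 75011883 to 75017951, reverse strand, GRCh37) encodes the cytochrome P450 that is the classical readout of AhR activity. It had 32 and 14 counts in Scramble (0.447 and 0.213 CPM), 18 and 19 in RNF2 shRNA1 (0.264 and 0.296 CPM), and 29 and 36 in the libraries labelled RNF2 shRNA2 (0.415 and 0.336 CPM). With PRT4165 it had 69 and 72 counts (0.871 and 1.04 CPM) and with GW-516 115 and 76 (1.31 and 0.900 CPM). All 4 compound libraries were above all 6 hairpin libraries, and Scramble overlapped both other hairpin groups. CYP1A1 rose 2.85-fold with PRT4165 (log2 1.51, SE 0.34, edgeR adjusted p = 7.1e-04) and 3.31-fold with GW-516 (log2 1.72, SE 0.33, edgeR adjusted p = 8.5e-05), and both calls held under every alternative tried. The sizes depended on the Scramble libraries: without Scramble replicate 1 they were log2 2.16 and 2.38, and without Scramble replicate 2 they were 1.11 and 1.32. CYP1A1 was not called in RNF2 shRNA1 (log2 -0.25, 95% interval -1.08 to 0.58, edgeR adjusted p = 0.63) or in the libraries labelled RNF2 shRNA2 (log2 0.15, 95% interval -0.61 to 0.92, edgeR adjusted p = 0.78).

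CYP1B1 was abundant in every group. CYP1B1 (ENSG00000138061.7, chromosome 2, 38294116 to 38337044, reverse strand, GRCh37) encodes a P450 that oxidizes oestrogens and polycyclic hydrocarbons. It stood at 156 and 153 CPM in Scramble, 281 and 285 in RNF2 shRNA1, 164 and 182 in the libraries labelled RNF2 shRNA2, 215 and 213 with PRT4165, and 179 and 177 with GW-516. RNF2 shRNA1 was highest, PRT4165 next, and GW-516 overlapped the libraries labelled RNF2 shRNA2. CYP1B1 rose 1.83-fold in RNF2 shRNA1 (log2 0.87, SE 0.036, edgeR adjusted p = 2.4e-15), 1.38-fold with PRT4165 (log2 0.47, SE 0.036, edgeR adjusted p = 3.8e-10) and 1.15-fold with GW-516 (log2 0.20, SE 0.036, edgeR adjusted p = 4.2e-05). The rise was 1.12-fold where the label is RNF2 shRNA2 (log2 0.16, SE 0.036, edgeR adjusted p = 8.8e-04). This last call was lost without RNF2 shRNA2 replicate 2 (log2 0.071, adjusted p = 0.084) and with near-identical pairs summed (0.096).

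ALDH3A1 (ENSG00000108602.13, chromosome 17, 19641297 to 19652256, reverse strand, GRCh37) encodes an aldehyde dehydrogenase that clears aldehydes made by lipid peroxidation. It stood at 3.38 and 3.82 CPM in Scramble, 7.22 and 7.66 in RNF2 shRNA1, 4.79 and 4.12 in the libraries labelled RNF2 shRNA2, 9.78 and 9.95 with PRT4165, and 8.43 and 8.65 with GW-516. No 2 neighbouring groups in the order overlapped, with Scramble lowest and PRT4165 highest. ALDH3A1 rose 2.75-fold with PRT4165 (log2 1.46, SE 0.103, edgeR adjusted p = 2.6e-11), 2.38-fold with GW-516 (log2 1.25, SE 0.103, edgeR adjusted p = 1.8e-10) and 2.07-fold in RNF2 shRNA1 (log2 1.05, SE 0.106, edgeR adjusted p = 6.3e-09). Where the label is RNF2 shRNA2 the rise was 1.23-fold (log2 0.30, SE 0.109, edgeR adjusted p = 0.029), a call that was lost under 5 alternatives besides the 2-fold rule, among them DESeq2 (adjusted p = 0.068), leaving out Scramble replicate 1 (0.27) and leaving out RNF2 shRNA2 replicate 1 (0.21).

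**Figure D3:**
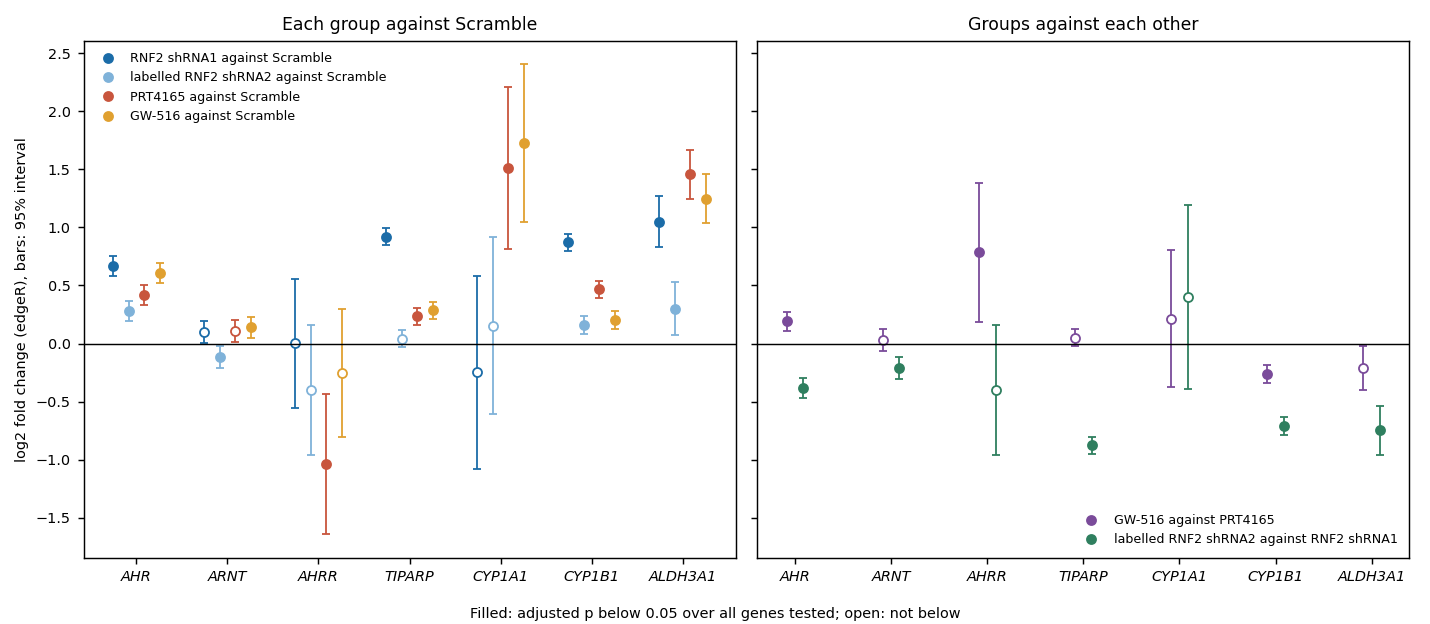
Fitted log2 fold changes of the 7 genes with 95% intervals, on the left for each group against Scramble and on the right for GW-516 against PRT4165 and for the hairpin groups against each other; filled points have an edgeR adjusted p below 0.05. AHR lies above 0 in all 4 comparisons with Scramble (0.28 to 0.67), and CYP1A1 is above 0 with a filled point for the compounds alone (1.51 and 1.72).

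The windows of 250 bases before the annotated starts of TIPARP, CYP1A1 and AHRR are shown because they hold the AhR core letters while the measured changes of the 3 genes were unlike. Sequences are from RefSeq on GRCh38.p14, gene strand, 5′ to 3′, and capitals mark GCGTG or its reverse complement CACGC. TIPARP (chr3:156674340-156674589, forward strand) has matches that begin 208 and 142 bases before the start, CYP1A1 (chr15:74725529-74725778, reverse strand) has 1 at 57 bases, and AHRR (chr5:321464-321713, forward strand) has 1 at 30 bases.
TIPARP: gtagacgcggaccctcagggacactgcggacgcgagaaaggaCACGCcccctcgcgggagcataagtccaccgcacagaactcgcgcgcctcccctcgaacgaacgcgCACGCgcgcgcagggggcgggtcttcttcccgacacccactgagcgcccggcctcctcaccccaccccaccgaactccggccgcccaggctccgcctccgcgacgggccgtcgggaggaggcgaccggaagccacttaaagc
CYP1A1: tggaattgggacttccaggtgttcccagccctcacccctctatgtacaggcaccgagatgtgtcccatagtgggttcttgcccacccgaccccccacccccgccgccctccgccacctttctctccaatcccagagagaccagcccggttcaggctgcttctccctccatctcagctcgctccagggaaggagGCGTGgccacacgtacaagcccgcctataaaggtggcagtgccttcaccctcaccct
AHRR: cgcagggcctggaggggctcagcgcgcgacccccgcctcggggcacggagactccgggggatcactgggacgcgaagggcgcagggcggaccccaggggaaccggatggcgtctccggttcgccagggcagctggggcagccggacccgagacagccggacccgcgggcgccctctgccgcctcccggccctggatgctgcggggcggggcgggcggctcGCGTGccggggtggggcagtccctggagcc

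The letters GCGTG, on either strand, occur in 32.2% of 35116 such windows of all genes, and the longer form TNGCGTG, which contains them, in 4.52%; of the 3 windows shown, the AHRR window has the longer form. The windows of AHR and ARNT hold no GCGTG, nor do the windows of the other 2 TIPARP starts in the table, and the window of the other AHRR start holds 2. A match is a description of the letters. Sequence outside these windows was not searched, so the matches do not give every site a gene may have. CYP1B1 and ALDH3A1 have no window in the table used.

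Set directly against each other, the compounds differed in 3 of the 7 genes, at doses that the labels do not give; 41.1% of all genes tested differed, a share close to that of the members. GW-516 had 1.14-fold more AHR than PRT4165 (log2 0.19, SE 0.041, edgeR adjusted p = 4.8e-04, n = 2 against 2) and 1.20-fold less CYP1B1 (log2 -0.26, SE 0.036, edgeR adjusted p = 2.9e-06). AHRR was 1.72-fold higher with GW-516 (log2 0.79, SE 0.29, edgeR adjusted p = 0.033), a call that was lost under 6 alternatives besides the 2-fold rule and stood at log2 0.29 (adjusted p = 0.50) without PRT4165 replicate 1 and at 1.48 (adjusted p = 0.0013) without PRT4165 replicate 2. The other 4 genes were not called. The 95% interval of the difference was -0.38 to 0.80 for CYP1A1, -0.021 to 0.12 for TIPARP and -0.063 to 0.12 for ARNT. For ALDH3A1 it was -0.40 to -0.019 (edgeR adjusted p = 0.073). The interval of CYP1A1 is wide, so the absence of a call does not show that the compounds were equal in this gene. ALDH3A1 passed when the libraries labelled RNF2 shRNA2 were left out (adjusted p = 0.043), and TIPARP passed without PRT4165 replicate 1 (log2 0.099, adjusted p = 0.045).

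Between the hairpin groups, the libraries labelled RNF2 shRNA2 stood below RNF2 shRNA1 in 5 of the 7 genes and above it in none by the test, where 29.2% of all genes tested were lower and 59.2% differed. TIPARP differed by log2 -0.88 (SE 0.035, edgeR adjusted p = 1.2e-16), ALDH3A1 by -0.75 (SE 0.101, edgeR adjusted p = 5.7e-07), CYP1B1 by -0.71 (SE 0.036, edgeR adjusted p = 5.6e-14), AHR by -0.38 (SE 0.041, edgeR adjusted p = 1.2e-08) and ARNT by -0.21 (SE 0.045, edgeR adjusted p = 2.9e-04). CYP1A1 (log2 0.403, 95% interval -0.39 to 1.20) and AHRR (log2 -0.403, 95% interval -0.96 to 0.16) were not called. All 5 calls held under every alternative tried apart from the 2-fold rule.

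A wider list of 18 genes reported as AhR targets in other systems was also counted. Its 16 genes tested had a median log2 fold change of 0.88 with GW-516, where 12 rose, 1 fell and 3 did not pass, beside a median of -0.0025 over all genes tested. With PRT4165 8 rose, 3 fell and 5 did not pass (median 0.19). In RNF2 shRNA1 6 rose, 3 fell and 7 did not pass (median 0.20), and in the libraries labelled RNF2 shRNA2 5 rose, 4 fell and 7 did not pass (median 0.095). The shares of the list called were 81.2%, 68.8%, 56.2% and 56.2%, to be read beside 55.5%, 41.6%, 54.7% and 42.1% of all genes tested.

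LYPD3, a GPI-anchored urokinase receptor relative used as an AhR readout, stood at 1.79 and 1.46 CPM in Scramble, 4.95 and 5.48 with PRT4165 and 13.9 and 13.8 with GW-516, but at 0.587 and 0.468 in RNF2 shRNA1 and 0.372 and 0.522 in the libraries labelled RNF2 shRNA2. The compound libraries were all above Scramble and the hairpin libraries all below it. LYPD3 rose by log2 3.09 with GW-516 (SE 0.13, edgeR adjusted p = 7.1e-16) and by 1.68 with PRT4165 (SE 0.14, edgeR adjusted p = 4.9e-10). It fell by 1.62 in RNF2 shRNA1 (edgeR adjusted p = 2.2e-07) and by 1.82 in the libraries labelled RNF2 shRNA2 (edgeR adjusted p = 4.1e-08). ASB2, a ubiquitin ligase adaptor, named after its values were seen, was likewise above Scramble with both compounds and below it in both hairpin groups. It had 16 and 24 counts in Scramble, 73 and 67 with PRT4165, 93 and 131 with GW-516, 4 and 4 in RNF2 shRNA1 and 10 and 13 in the libraries labelled RNF2 shRNA2. These counts are small, with both ends of a fragment counted, which limits what can be seen of the ASB2 falls in the hairpin groups. Most calls of the list in RNF2 shRNA1 went the other way, as 6 rose and 3 fell. SLC7A5 (log2 0.79), CDKN1B (0.71) and NFE2L2 (0.37) rose there (edgeR adjusted p = 1.7e-17, 4.5e-13 and 9.8e-08). For the label RNF2 shRNA2, where 5 rose and 4 fell, their values were 0.35, -0.20 and 0.21.

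XDH, the xanthine oxidizing enzyme of purine breakdown, stood at 1.47 and 1.92 CPM in Scramble, 6.75 and 6.88 with PRT4165 and 5.60 and 5.48 with GW-516 (log2 2.02 and 1.72, edgeR adjusted p = 8.5e-12 and 7.7e-11). SERPINB2, an inhibitor of plasminogen activators, stood at 0.335 and 0.517 CPM in Scramble, 1.22 and 1.20 with PRT4165 and 3.58 and 3.85 with GW-516 (log2 3.13 with GW-516, edgeR adjusted p = 1.4e-11). NQO1, a quinone reductase that is also a target of the stress factor NRF2, stood at 216 and 217 CPM in Scramble, 209.7 and 207 with PRT4165 and 339.9 and 340.2 with GW-516. NQO1 rose by log2 0.65 with GW-516 (SE 0.027, edgeR adjusted p = 6.0e-16) but no call was made with PRT4165 (log2 -0.055, edgeR adjusted p = 0.12), and the difference between the compounds was 0.71 (SE 0.027, edgeR adjusted p = 7.3e-16). IL33, an alarmin cytokine, went opposite ways: it stood at 2.14 and 1.61 CPM in Scramble, 0.606 and 0.620 with PRT4165 and 3.29 and 4.19 with GW-516, a difference between compounds of log2 2.61 (SE 0.19, edgeR adjusted p = 9.4e-11).

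The drug-conjugating enzyme UGT1A6 and the efflux pump ABCG2, both named after their values were seen, had 2 and 4 counts each in Scramble. UGT1A6 had 31 and 34 counts with PRT4165 and 88 and 81 with GW-516, and ABCG2 had 17 and 11 and then 68 and 55. The edgeR adjusted p with GW-516 was 1.2e-07 for UGT1A6 and 1.9e-06 for ABCG2; with PRT4165 it was 5.7e-05 and 0.015, and the ABCG2 call with PRT4165 was lost without Scramble replicate 1 (0.14) or PRT4165 replicate 1 (0.089). UGT1A6 shares exons with its neighbours in the UGT1A cluster, so its counts are uncertain. CYP1A2, the liver sister of CYP1A1, stood at 0.14 CPM or less in every library and was not tested.

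**Figure D4:**
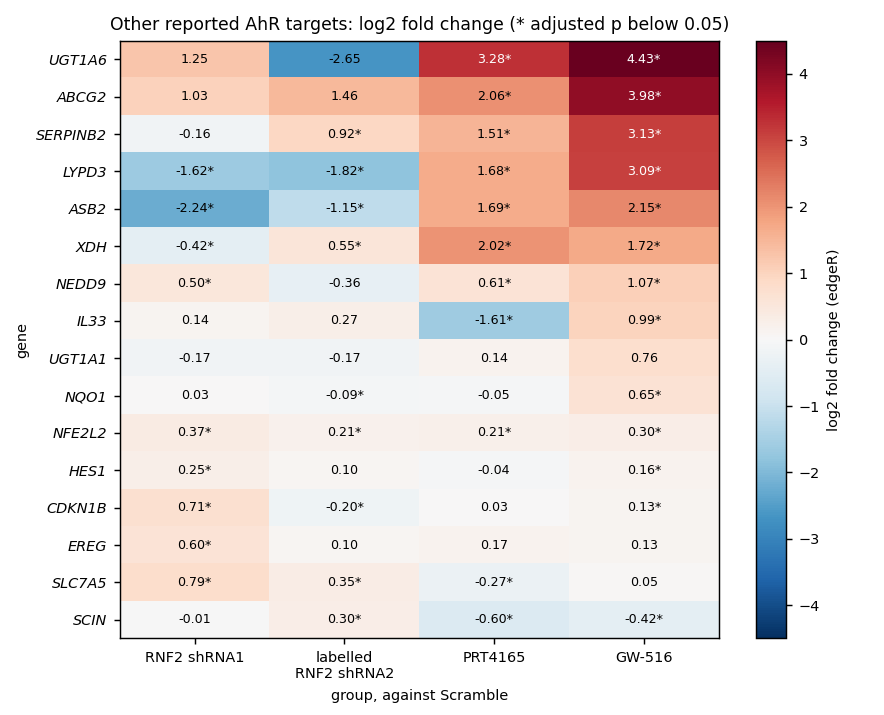
Fitted log2 fold changes against Scramble of the 16 tested genes from a list of reported AhR targets, ordered by their value with GW-516; a star marks an edgeR adjusted p below 0.05. LYPD3 and ASB2 are positive for both compounds and negative for both hairpin groups, and values of UGT1A6 and ABCG2 rest on 2 and 4 counts in the Scramble libraries and depend on the prior count of the fit.

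Genes that hold, help or degrade the receptor were a mixed group. Of 18 tested, 4 rose and 10 fell with GW-516, 6 rose and 6 fell with PRT4165, 6 rose and 7 fell in RNF2 shRNA1 and 6 rose and 4 fell in the libraries labelled RNF2 shRNA2. The shares of the list called, in that order, were 77.8%, 66.7%, 72.2% and 55.6%, beside 55.5%, 41.6%, 54.7% and 42.1% of all genes tested. Their median log2 fold change was between -0.11 and 0.025 in these comparisons. The chaperone genes HSP90AB1 and HSP90AA1, the latter named after its values were seen, were lower than in Scramble in all 4 groups by the test, by log2 -0.11 to -0.39 and -0.11 to -0.16. PTGES3, the co-chaperone p23, fell with GW-516 by 0.38 (edgeR adjusted p = 1.8e-12) and with PRT4165 by 0.22 (edgeR adjusted p = 4.7e-08). KLF6, a zinc finger factor that can partner AhR, had the smallest adjusted p of the 18 in each of the 4 comparisons. It stood at 49.2 and 49.5 CPM in Scramble, 93.1 and 89.3 in RNF2 shRNA1, 73.3 and 75.3 in the libraries labelled RNF2 shRNA2, 108 and 112 with PRT4165 and 106 and 107 with GW-516. RELB, an NF-kB subunit that also partners AhR, rose in RNF2 shRNA1 (log2 1.28, SE 0.090, edgeR adjusted p = 8.6e-12), with no call against Scramble elsewhere. CUL4B, the scaffold of a ubiquitin ligase that AhR can join, rose by log2 0.48 with GW-516 and 0.40 with PRT4165 (edgeR adjusted p = 4.0e-12 and 2.4e-10).

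Among 13 relatives and partners of ARNT, 10 were tested. In RNF2 shRNA1 6 rose, in the libraries labelled RNF2 shRNA2 4 rose, with PRT4165 6 rose, and none fell in these 3 groups; with GW-516 4 rose and 2 fell. The shares called were 60.0%, 40.0%, 60.0% and 60.0%, beside 54.7%, 42.1%, 41.6% and 55.5% of all genes tested, so those of RNF2 shRNA1, of the label RNF2 shRNA2 and of GW-516 were near the background. The 4 calls in the libraries labelled RNF2 shRNA2 came to 2 without Scramble replicate 1 or without RNF2 shRNA2 replicate 2. EPAS1, the hypoxia factor HIF-2 alpha that needs ARNT, stood at 95.9 and 93.0 CPM in Scramble, 194 and 197 with PRT4165 and 218 and 223 with GW-516 (log2 1.05 and 1.22, SE 0.031 for both, edgeR adjusted p = 2.0e-18 and 4.0e-20), and at 97.0 and 96.3 in RNF2 shRNA1. EPAS1 also rose where the label is RNF2 shRNA2, to 139 and 142 CPM (log2 0.57, SE 0.031, edgeR adjusted p = 3.1e-13). HIF1A, the other hypoxia factor, had group means within 435 to 504 CPM. It was called higher in RNF2 shRNA1 (log2 0.10, edgeR adjusted p = 0.0049) and for the label RNF2 shRNA2 (log2 0.092, edgeR adjusted p = 0.013). Those values were 0.088 without RNF2 shRNA1 replicate 1 and 0.033 without RNF2 shRNA2 replicate 2. Also called higher in RNF2 shRNA1 were SIM2 (log2 0.51), NPAS2 (0.32) and BMAL2 (0.28). ARNT2, a paralogue of ARNT, had 10 and 3 counts in Scramble, 17 and 29 with PRT4165 and 230 and 227 with GW-516, where it reached 2.61 and 2.69 CPM (edgeR adjusted p = 1.2e-10). The clock gene BMAL1 rose by log2 0.88 with GW-516 (SE 0.068, edgeR adjusted p = 6.3e-11) and by 0.35 with PRT4165 (edgeR adjusted p = 2.7e-04).

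Of 14 genes that move tryptophan or turn it into kynurenines, from which AhR ligands arise, 12 were tested. In RNF2 shRNA1 7 rose and 3 fell, in the libraries labelled RNF2 shRNA2 4 rose and 3 fell, with PRT4165 2 rose and 6 fell, and with GW-516 3 rose and 2 fell. The shares called were 83.3%, 58.3%, 66.7% and 41.7%, beside 54.7%, 42.1%, 41.6% and 55.5% of all genes tested, so with GW-516 the share was below the background. The 8 calls with PRT4165 came to 2 without Scramble replicate 1, 3 without Scramble replicate 2 and 4 when PRT4165 replicate 1 or replicate 2 was left out. The 7 calls for the label RNF2 shRNA2 came to 4 without Scramble replicate 1 or without RNF2 shRNA2 replicate 1. The enzyme that starts the path, IDO1, stood at 4.93 and 5.03 CPM in Scramble, 9.33 and 10.1 in RNF2 shRNA1 and 8.86 and 9.13 with GW-516 (log2 0.96 and 0.85, edgeR adjusted p = 4.2e-09 and 2.9e-08), but at 5.12 in both PRT4165 libraries. SLC7A5, the tryptophan carrier that is itself listed as an AhR target, stood at 373 and 374 CPM in Scramble, 644 and 648 in RNF2 shRNA1, and 305 and 316 with PRT4165. KYNU, which splits kynurenine, fell by 1.26 in the libraries labelled RNF2 shRNA2 (SE 0.077, edgeR adjusted p = 1.9e-12) and rose by log2 0.57 with GW-516 (SE 0.069, edgeR adjusted p = 1.2e-07). AADAT, a kynurenine aminotransferase, fell by 1.31 in RNF2 shRNA1 (SE 0.076, edgeR adjusted p = 2.5e-13). KYAT1, another, rose by log2 0.85 there (SE 0.062, edgeR adjusted p = 2.3e-11) and fell by 0.43 in the libraries labelled RNF2 shRNA2 (edgeR adjusted p = 6.7e-06).

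For the 5 members with a mean of at least 1 CPM, the genes of most similar profile were found by the root mean square difference of centred log2 CPM over the 10 libraries, among 12836 other genes. For AHR these were STK17A (0.049), SNX16 (0.055) and MAN2A1 (0.058), and for ARNT they were FNBP1L (0.030), IFNGR1 (0.041) and KLF5 (0.043). TIPARP was closest to ABL2 (0.050), PJA2 (0.054) and LIMA1 (0.060), and CYP1B1 to KHNYN (0.063), HIVEP1 (0.064) and BLTP3A (0.070). ALDH3A1 was closest to MYLK (0.068), CPED1 (0.13) and PDE10A (0.15). No member appeared among the 3 nearest genes of another. With this many genes compared, close profiles are found for any gene, and all share the same libraries.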

How the data were processed

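Messenger RNA of 10 libraries was read from both ends with a strand-preserving kit, per the labels' protocols. The values the authors deposited are whole-number counts, not normalized, in a table for each library. The file headers name featureCounts 1.4.3-p1 with strand option 2 and GENCODE 18. They show no setting for read pairs, so fragments count through both mates and counting noise is understated: 62.7% to 69.6% of small counts were even. The submitters' processing notes list hg19 (GRCh37), STAR without a version and DESeq2 1.8.1. A symbol was found for 51488 of 57445 identifiers (89.6%).

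Genes passing filterByExpr at a minimum count of 10 were fitted with edgeR 4.0.16 in R 4.3.3. The model had a term for each group, TMM scaling and robust quasi-likelihood tests, two-sided, leaving 5 residual degrees of freedom. Benjamini-Hochberg adjustment ran over 18478 genes for each comparison. The method was tested on simulated data with the same spread for all genes and groups. Those data lack the counting of both mates and the uneven spread between groups, so the method was not tested under these conditions. Alternatives were RLE size factors, DESeq2 1.42.0, other filters, a replicate block, groups alone, near-identical pairs summed, no libraries labelled RNF2 shRNA2, a 2-fold rule and every library left out in turn. Members, lists and tests were chosen with earlier results of these data known. Named from each list were up to 4 called genes per comparison with the smallest adjusted p, and for each member at 1 CPM or more on average the 3 genes of closest profile. Figures used matplotlib 3.10.9 in Python 3.11.15. Single values of 1 listed co-factor and 1 marker list are not reported here.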

Additional observations from a re-analysis of the deposited data

Results flagged for a closer look

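The shift from Scramble differed between the 2 compounds, by the direct test of GW-516 against PRT4165, in AHR (log2 0.19), AHRR (0.79) and CYP1B1 (-0.26); the AHRR difference rests on 26 to 79 counts per library and was 0.29 without PRT4165 replicate 1 and 1.48 without PRT4165 replicate 2. It differed between the 2 hairpin groups, by the direct test of the libraries labelled RNF2 shRNA2 against RNF2 shRNA1, in AHR (-0.38), ARNT (-0.21), TIPARP (-0.88), CYP1B1 (-0.71) and ALDH3A1 (-0.75).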

How the results depend on the processing

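The 7 genes had 532 values under the alternatives, among them the 2-fold rule, which is a stricter threshold on the main fit and not a refit. Of these, 468 kept direction and side of the threshold, 46 lost a call, 12 gained one and 6 changed sign. Part of the lost calls came from the 2-fold rule. The sign changes came from leaving out a library, in values that were not called, and the cause was not tested. Over such fits the log2 fold change in RNF2 shRNA1 ran from -0.10 to 0.14 for AHRR and from -0.65 to 0.40 for CYP1A1. For the libraries labelled RNF2 shRNA2 it ran from -0.0016 to 0.077 for TIPARP and from -0.26 to 0.79 for CYP1A1. For GW-516 against PRT4165 it ran from -0.046 to 0.11 for ARNT and from -0.079 to 0.46 for CYP1A1. Requiring a 2-fold change left 1 of 4 member calls in RNF2 shRNA1, 0 of 4 for the libraries labelled RNF2 shRNA2, 3 of 6 with PRT4165, 2 of 6 with GW-516, 0 of 3 between compounds and 0 of 5 between hairpin groups. Over all genes it left 1583, 899, 880, 1672, 809 and 2074 calls in that order. For the libraries labelled RNF2 shRNA2, DESeq2 left 2 member calls, near-identical pairs summed left 1, and leaving out a library left 2 to 3. Summing such pairs left 4902 calls over all genes there, 4911 with PRT4165 and 4555 between compounds. Fewer samples enter that fit, and its spread comes from the pairs left unsummed, those labelled RNF2 shRNA2 and those of PRT4165. What lowered the counts was not tested. Same-numbered libraries did not deviate together (r from -0.010 to 0.0087 over 13104 genes). Each comparison holds a group whose libraries differed by little more than sampling noise. There r stays near 0 with or without pairing, so it cannot tell whether the numbers pair libraries. With the replicate block the 7 genes had 4, 3, 6, 6, 3 and 5 calls. AHRR and CYP1A1, at 14 to 115 counts, are limited by depth. In RNF2 shRNA1, the label RNF2 shRNA2, PRT4165 and GW-516 in turn, the 2-fold rule left 2 of 9, 2 of 9, 7 of 11 and 7 of 13 reported targets called, 1 of 13, 0 of 10, 1 of 12 and 1 of 14 co-factors, 0 of 6, 0 of 4, 2 of 6 and 2 of 6 relatives of ARNT, and 3 of 10, 1 of 7, 2 of 8 and 0 of 5 tryptophan genes. With near-identical pairs summed, co-factors called came to 6 of 10 for the libraries labelled RNF2 shRNA2 and 7 of 12 with PRT4165, relatives of ARNT to 3 of 6 in RNF2 shRNA1 and 2 of 4 for the libraries labelled RNF2 shRNA2, and tryptophan genes to 3 of 7 there and 3 of 8 with PRT4165, where DESeq2 also gave 3.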
